A study of Sus scrofa with 8 samples.

Results

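The sarcomere, the contractile unit of striated muscle, slides thin filaments of actin past thick filaments of myosin. Thin filaments carry tropomyosin and the troponin complex, which together switch contraction on and off with calcium, and nebulin runs along their length. Their ends are anchored in the Z-disc, a protein lattice that also holds adaptor and signalling proteins. N6-methyladenosine (m6A) is a common internal mark of messenger RNA, deposited by a methyltransferase complex and bound by reader proteins that can alter splicing, stability or translation of the marked transcript.

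Peaks of m6A were described here for 7 genes of these structures, which were the thin filament genes NEB, TPM1, TNNT1 and TNNI1 and the Z-disc or Z-disc-associated genes MYOZ1, PDLIM5 and ANKRD1. Every row of the deposited lists that bore 1 of these symbols was taken. NEB had a second identifier, ENSSSCG00000016397, which the lists leave without a symbol and which the gene name table calls NEB, so the 7 genes stand under 8 identifiers, of 5650 with a peak in any animal. The lists come from muscle of 2 Landrace and 2 Jinhua pigs, all males aged 180 days with no treatment or genetic change named in the labels, and there is 1 list per animal. Jinhua is described by the labels as having more intramuscular fat than Landrace. For each gene a list states how many peaks were found, where on 1 transcript each begins and ends, and whether that place is coding sequence or UTR, without read counts or enrichment. A peak is therefore a yes-or-no call, and a gene with no call may be unmethylated or too weakly expressed for one. With 2 animals per breed an exact two-sided permutation test cannot go below p = 0.333, so no difference between the breeds could pass that test at the usual threshold.

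The lists held 3647 to 4468 genes and 6176 to 7733 peaks, and depth is unknown. Of 12 skeletal muscle fibre markers, 10 carried a peak in all 4 animals and the other two, MYH4 and MB, in none. Of 7 heart muscle markers, MYH6 was called in all 4 animals and TNNT2 in both Landrace animals, and the other 5 in none. Of 6 adipocyte markers 3 were called, CIDEC and LIPE in all 4 animals and PLIN1 in all but Landrace 2. No satellite cell marker of 3 was called, and all 4 smooth muscle markers were, ACTA2, TAGLN and CNN1 in all 4 animals and MYH11 in both Landrace animals. Over all called genes, 43.8% carried a peak in all 4 animals, and 2.42% in both Landrace animals and no Jinhua animal. The marker calls are calls of methylation and not levels of expression.

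Of the 8 identifiers, 6 carried a peak in all 4 animals, whereas 43.8% of all called genes did. TNNT1 and PDLIM5 carried a peak in Jinhua 1 and Jinhua 2 but in no Landrace animal, a pattern found in 5.15% of called genes. None had the reverse pattern, called in Landrace 1 and 2 and in no Jinhua animal, which held for 2.42%. The genes were chosen with these calls already known, so the counts describe them and test nothing. Summed over the 8 identifiers there were 26 peaks in Jinhua 1, 30 in Jinhua 2, 25 in Landrace 1 and 22 in Landrace 2. NEB alone made up most of these, and without it the sums were 8, 9, 7 and 6 peaks in the same order of animals.

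**Figure D1:**
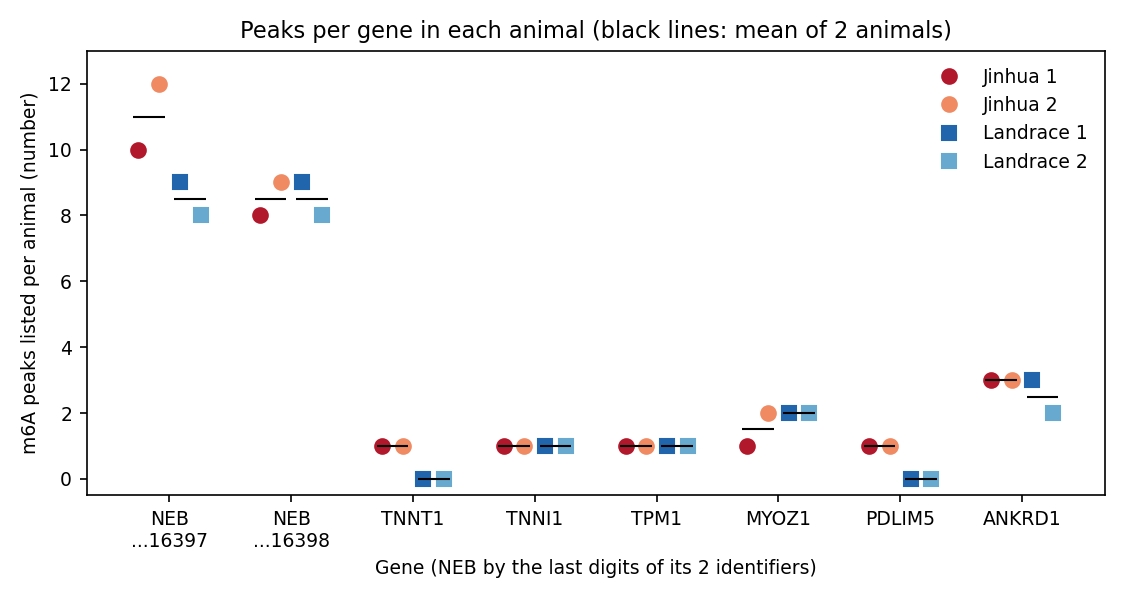
The number of listed m6A peaks (vertical axis) is plotted for each gene (horizontal axis) and each animal, with circles for Jinhua, squares for Landrace and a black line at the mean of the 2 animals of a breed. TNNT1 and PDLIM5 sit at 1 in both Jinhua animals and at 0 in both Landrace animals, and NEB ENSSSCG00000016397 sits at 10 and 12 against 9 and 8.

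NEB encodes nebulin, a giant protein that spans the thin filament and is needed for its normal length. Under identifier ENSSSCG00000016397 it had 10 peaks in Jinhua 1, 12 in Jinhua 2, 9 in Landrace 1 and 8 in Landrace 2. Both Jinhua animals thus lay above both Landrace animals, at 11 ± 1.41 against 8.5 ± 0.707 peaks (SD, n = 2 each, exact permutation p = 0.333). More peaks in each Jinhua than in each Landrace animal were seen in 9.36% of all called genes. Under ENSSSCG00000016398 the numbers were 8, 9, 9 and 8, with equal means of 8.5 in the breeds. The 2 identifiers of the gene thus ordered the animals differently. By mean number of peaks these identifiers ranked 4th and 7th of 5650, and the lists do not give transcript lengths to set this against. Closest to ENSSSCG00000016397, by the sum of absolute differences in peak number over the 4 lists, were PRRC2B and SRRM2 with sums of 5 and KMT2D with 6. Closest to ENSSSCG00000016398 were CACNA1S, COL6A3 and PRRC2A, each with a sum of 3.

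Every NEB peak with an annotated part lay in coding sequence. Jinhua 1 and Landrace 2 give positions for all their NEB peaks, while Jinhua 2 and Landrace 1 give the first 4 per identifier, in an order that follows position in only 35.8% and 36.8% of their genes with several positions. Over both identifiers, 14 of the 18 NEB peaks of Jinhua 1 (77.8%, 95% Wilson interval 54.8 to 91.0) overlapped or adjoined a peak of Landrace 2. In all genes found in both lists this held for 80.8% of Jinhua 1 peaks (79.7 to 81.9), so NEB stood near that share. In the other direction it was 14 of 16 NEB peaks of Landrace 2 (87.5%, 64.0 to 96.5), against 82.2% over all genes. The intervals cover counting error only, and peaks of 1 transcript are not independent.

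Merged over these 2 complete lists, NEB peaks formed 18 regions, of which 12 held a peak in both animals, 4 in Jinhua 1 alone and 2 in Landrace 2 alone. On transcript ENSSSCT00000017854 (identifier ENSSSCG00000016397) the regions unique to Jinhua 1 were the 3 nearest the transcript start, at bases 231 to 399, 1170 to 1324 and 1791 to 1970. The first Landrace 2 peak on this transcript began at base 2643. Landrace 1, however, had peaks at bases 241 to 340 and 1761 to 1970, so this part of the transcript was not without peaks in the Landrace breed. The region at bases 3199 to 3310 was called in Landrace 2 and not in Jinhua 1, but Jinhua 2 and Landrace 1 had peaks there too, at 3203 to 3356 and 3190 to 3330. The peak at bases 6065 to 6218 in Jinhua 1 recurred within 2 bases at either edge, at 6065 to 6216 in Jinhua 2 and 6064 to 6218 in Landrace 2. Between bases 3547 and 3928 both complete lists had adjoining peaks that together covered nearly the same stretch. Jinhua 1 was cut between bases 3701 and 3702, and Landrace 2 between 3657 and 3658.

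On transcript ENSSSCT00000017855 (identifier ENSSSCG00000016398) the peak at bases 6 to 159 had the same start and end in Jinhua 1 and Landrace 2. A peak at bases 2285 to 2439 in Jinhua 1 was matched by 2311 to 2438 in Jinhua 2 and by no listed Landrace peak, but 5 peaks of Landrace 1 have no position. The peak at 3518 to 3720 was listed in Landrace 2 alone, but Jinhua 2 and Landrace 1 each have 5 peaks here without a position. Of the 16 NEB peaks with a position in Jinhua 2 and Landrace 1, 14 fell on a peak of one of the complete lists. The exceptions were bases 5617 to 5842 in Jinhua 2 and 429 to 540 in Landrace 1.

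**Figure D2:**
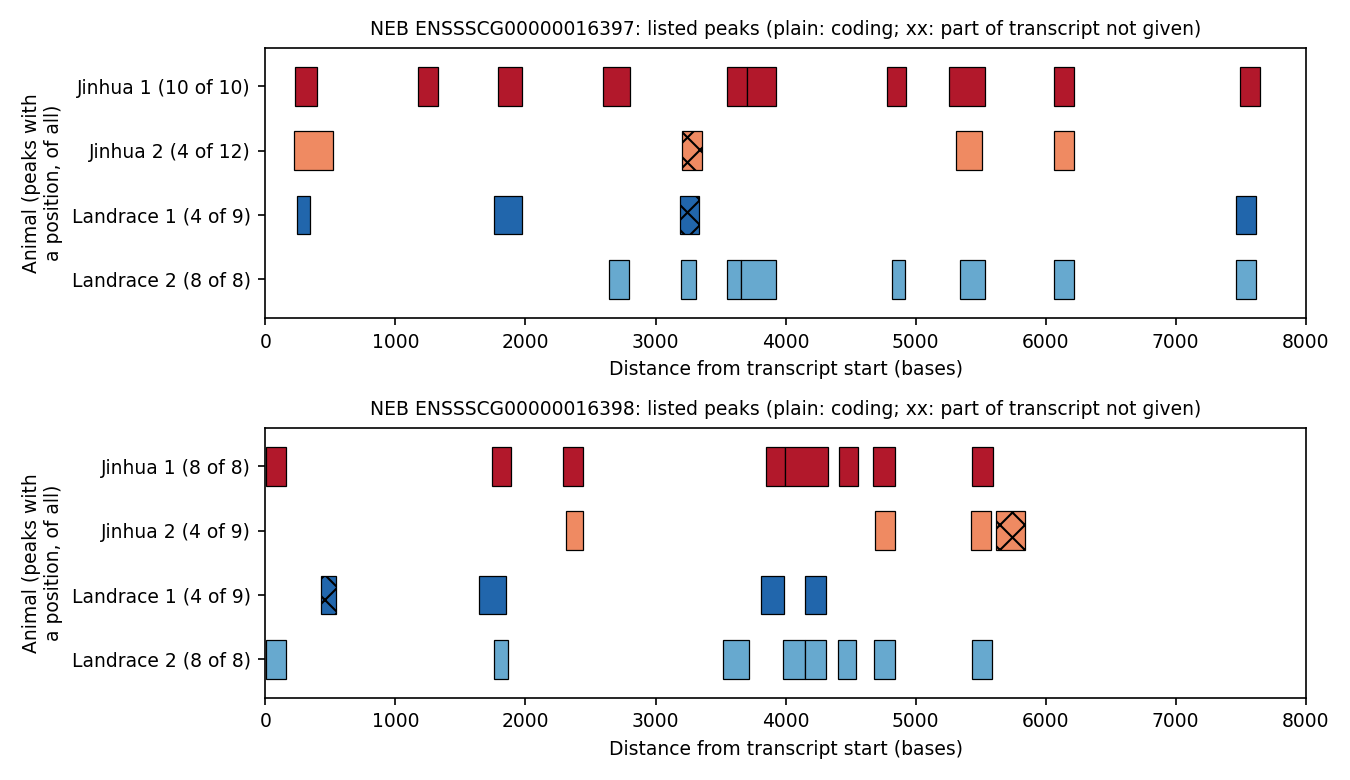
Listed NEB peaks are drawn as boxes along the distance from the transcript start in bases (horizontal axis) for each animal (vertical axis), 1 panel per identifier, with the number of peaks that have a position beside the number listed. In the upper panel the Landrace 2 row is empty up to base 2643, while Jinhua 1 has 3 peaks between bases 231 and 1970 and Landrace 1 has peaks at 241 to 340 and 1761 to 1970.

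TPM1 encodes alpha-tropomyosin, the coiled coil that covers the myosin-binding sites of actin at rest, and is spliced into several isoforms. It had a single peak in every animal, in the coding sequence of transcript ENSSSCT00000005049. The peak ran from base 80 to 255 in Jinhua 1, from 81 to 255 in Jinhua 2, from 46 to 150 in Landrace 1 and from 51 to 150 in Landrace 2. Both animals of a breed therefore had the same end, and the Jinhua end lay 105 bases farther along the transcript than the Landrace end (exact permutation p = 0.333). The starts were also apart, by 29 bases at the nearest. The Jinhua peaks were 176 and 175 bases wide. Those of Landrace 1 and Landrace 2 were 105 and 100 bases wide, at or near the narrowest width of any listed peak, 100 bases. With a minimum width of 150 bases TPM1 was called in the Jinhua animals alone. That minimum was chosen after seeing the data and lies between these widths, and the share of all genes that change in this way was not computed. In regions with exactly 1 peak in each animal, the mean width was larger in Jinhua in 58.9% and smaller in 36.6%. The Jaccard index, which divides the bases common to 2 peaks by all bases they cover, was 0.994 between the Jinhua animals and 0.952 between the Landrace animals, against 0.333 to 0.346 between animals of different breeds. Both same-breed pairs exceeded every mixed pair in 15.9% of the 2123 regions with exactly 1 peak in each animal. Peak ends at least 100 bases apart between the breeds occurred in 7 of these regions (0.330%), TPM1 among them. That limit lies just below the 105 bases of TPM1 itself, so the share is a description and tests nothing.

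**Figure D3:**
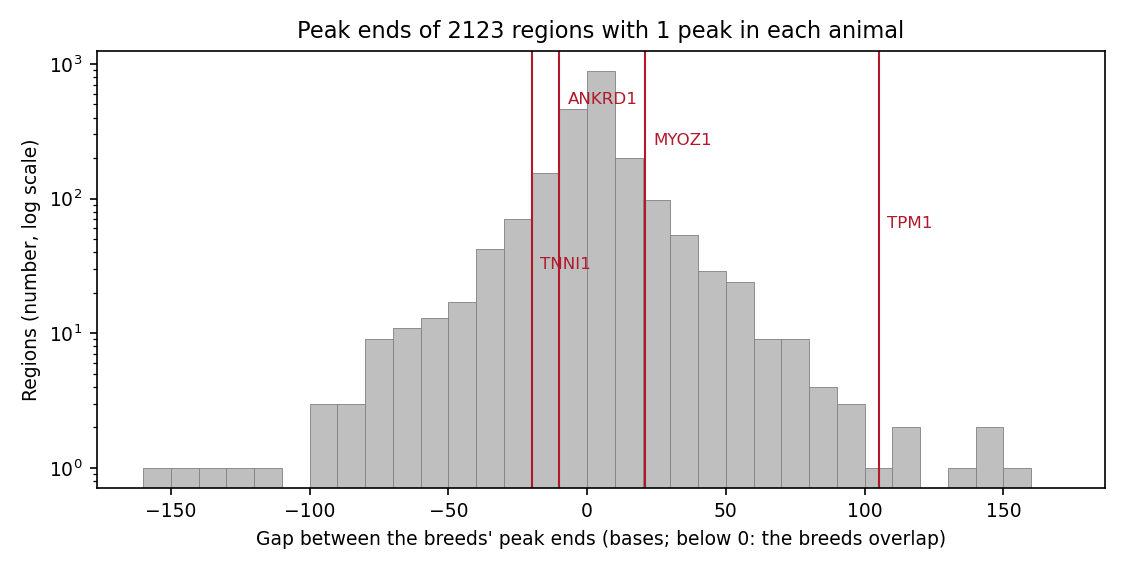
The gap in bases between the peak ends of the breeds (horizontal axis, from the nearest animals of either breed, below 0 where the breeds overlap) is shown for 2123 regions with 1 peak in each animal, with the number of regions on a log scale (vertical axis). Red lines mark TNNI1 at -20, ANKRD1 at -10, MYOZ1 at 21 and TPM1 at 105.

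The edges of peaks were not evenly spread between the breeds in the 2123 regions with exactly 1 peak in each animal. Only genes with complete positions are among these, so NEB is left out. In 35.9% of the 2123 regions the peak ended farther along in each Jinhua than in each Landrace animal, and in 8.01% the reverse was seen. For the start these shares were 25.8% and 12.0%. The median Jinhua minus Landrace difference was 5.5 bases for the end (quartiles -0.5 and 19) and 2 bases for the start (-3.5 and 13.5), far below the 105 and 32 bases of TPM1. The part of this uneven spread in the differences of TPM1 and MYOZ1 was not tested. TPM1 shares long stretches of sequence with other tropomyosin genes, and how the authors assigned reads of such stretches is not given in the sources used here, so its position is uncertain to that extent.

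TNNT1 encodes the slow skeletal troponin T, which ties the troponin complex to tropomyosin. It had 1 peak in Jinhua 1, at bases 1 to 167 of ENSSSCT00000023274, and 1 in Jinhua 2, at bases 12 to 168, both in coding sequence. No peak was listed in either Landrace animal, so the numbers did not overlap between the breeds (1 and 1 against 0 and 0, exact permutation p = 0.333). Another 208 genes had these same 4 numbers. Troponin T of slow fibres is paired with the slow troponin I, encoded by TNNI1, which inhibits actomyosin in the absence of calcium. TNNI1 had 1 coding peak in all 4 animals, at the start of ENSSSCT00000024604, and 618 other genes also had 1 peak in each list. It ran from base 1 to 162 in Jinhua 1, from 1 to 150 in Jinhua 2, from 1 to 140 in Landrace 1 and from 6 to 170 in Landrace 2. Its ends overlapped between the breeds, with means of 156 ± 8.49 and 155 ± 21.2 bases (SD, n = 2 each).

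Of 10 genes typical of slow fibres, a list put together after the peak numbers had been seen, 5 were called in any animal. MYH7, the slow myosin heavy chain, had 3 peaks in Jinhua 1 and 4 in Jinhua 2, with 1 in either Landrace animal. Of all called genes, 9.36% had more peaks in each Jinhua than in each Landrace animal. The MYH7 sites differed too. Its Landrace peaks lay at bases 2531 to 2630 in Landrace 1 and 2539 to 2660 in Landrace 2, and every Jinhua peak began at base 2981 or beyond. Over all regions, 3.38% had a peak in both Landrace animals and neither Jinhua animal, and 5.59% the reverse. MYL2 and MYOZ2 were called in Jinhua 2 alone, and TNNC1, TPM3, MYL3, ATP2A2 and MB in no animal. The list of Jinhua 2 was the longest of the 4, with 4468 genes. In RNA from whole muscle, fewer slow fibres and less RNA per fibre cannot be told apart, and neither can be told apart from less methylation of TNNT1 without read counts.

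**Figure D4:**
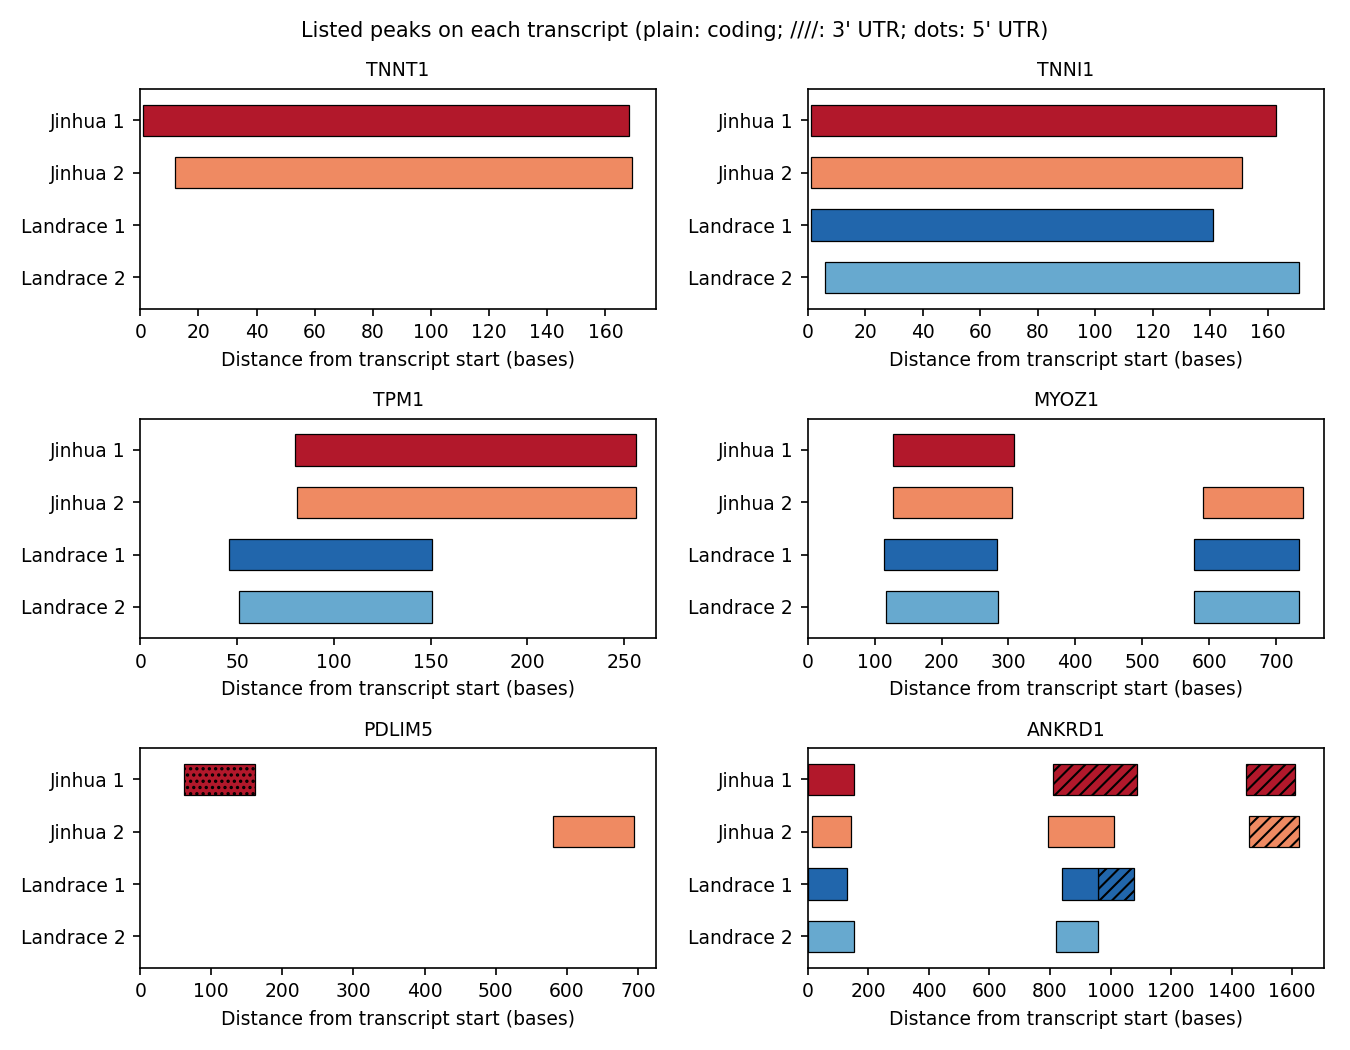
Listed peaks are drawn as boxes along the distance from the transcript start in bases (horizontal axes) for the 4 animals (vertical axes) and 6 genes, plain for coding sequence, striped for the 3' UTR and dotted for the 5' UTR. The TPM1 boxes end at 255 in both Jinhua animals and at 150 in both Landrace animals, and the ANKRD1 box beyond base 1448 appears in the Jinhua rows alone.

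MYOZ1 encodes calsarcin-2, a Z-disc protein of fast fibres that binds alpha-actinin and the phosphatase calcineurin. It had 1 peak in Jinhua 1 and 2 in each of the other animals, all in the coding sequence of ENSSSCT00000011277. The peak nearer the start was found in every animal, at bases 128 to 307 in Jinhua 1, 128 to 304 in Jinhua 2, 114 to 282 in Landrace 1 and 117 to 283 in Landrace 2. Starts and ends were both farther along in the Jinhua animals, by 12.5 and 23 bases on average (exact permutation p = 0.333 for each). Start and end were both farther along in each Jinhua than in each Landrace animal in 16.1% of regions with 1 peak in each animal. The other peak lay at bases 591 to 739 in Jinhua 2 and at 578 to 733 in both Landrace animals, and was missing from Jinhua 1.

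PDLIM5 encodes a PDZ-LIM adaptor, also called ENH, which links kinases such as protein kinase C to the Z-disc. Its call in both Jinhua animals did not rest on a shared site. The peak of Jinhua 1 covered bases 61 to 160 of ENSSSCT00000010065 and was annotated to the 5' UTR, and that of Jinhua 2 covered bases 581 to 693 in the coding sequence. Neither Landrace list named the gene. The Jinhua 1 peak was 100 bases wide, the narrowest width found in any list, and the Jinhua 2 peak was 113 bases, while the median over all listed peaks was 157.

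ANKRD1 encodes the cardiac ankyrin repeat protein CARP, a stress-responsive protein that acts in the nucleus and also binds titin and myopalladin in the sarcomere. It had 3 peaks in Jinhua 1, 3 in Jinhua 2, 3 in Landrace 1 and 2 in Landrace 2, which overlapped between the breeds. By position the breeds differed more than the numbers show. All 4 animals had a coding peak at the start of ENSSSCT00000011447, at bases 1 to 150 in Jinhua 1 and Landrace 2, 15 to 140 in Jinhua 2 and 1 to 130 in Landrace 1. All 4 also had signal around the end of the coding sequence. It was 1 peak at bases 811 to 1086 in Jinhua 1, at 793 to 1009 in Jinhua 2 and at 821 to 956 in Landrace 2, but 2 adjoining peaks at 841 to 958 and 959 to 1077 in Landrace 1. Counted as merged regions, ANKRD1 thus had 3 in either Jinhua list and 2 in either Landrace list. The share of all genes with more merged regions in each Jinhua animal was not computed, so this count is a description only. The region that made the difference was annotated to the 3' UTR and lay at bases 1448 to 1610 in Jinhua 1 and 1458 to 1622 in Jinhua 2, with no listed peak there in either Landrace animal. The middle peak was annotated to the 3' UTR in Jinhua 1 and to coding sequence in Jinhua 2 and Landrace 2, and those of Landrace 1 to coding sequence and 3' UTR.

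The 6 genes with complete positions held 10 merged regions. Of these 5 had a peak in all 4 animals, 1 each in TNNI1, TPM1 and MYOZ1 and 2 in ANKRD1, and over all 9414 regions this held for 27.1%. The 2 regions with a peak in both Jinhua animals and neither Landrace animal were those of TNNT1 and the 3' UTR of ANKRD1, and over all regions 5.59% had this pattern. No region had a peak in both Landrace animals and neither Jinhua animal, against 3.38% of all regions. The other 3 regions were the second MYOZ1 peak and both PDLIM5 peaks.

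Peaks of these genes lay mostly in coding sequence. Of the peaks with an annotated part, 23 of 26 were coding in Jinhua 1, 14 of 15 in Jinhua 2, 12 of 13 in Landrace 1 and all 22 in Landrace 2. Over the 4 animals this was 93.4% of 76 peaks, and over all genes it was 70.4% of 25697 peaks. The same sites recur between animals and NEB holds most of the peaks, so the 76 are not independent and the difference was not tested. Without NEB the share was 83.3% of 30 peaks. The 5 peaks outside coding sequence were 4 in the 3' UTR of ANKRD1 and the 5' UTR peak of PDLIM5. Of 80 peaks with a position, 7 began at base 1 of the transcript (8.75%, against 5.94% over all genes), in TNNT1, TNNI1 and ANKRD1. All 7 were annotated as coding. A start within 15 bases of the transcript start was found for 12 of the 80 (15%, against 7.4% over all genes). The lists do not state how much UTR each transcript model holds, and its part in the coding share was not tested. Peaks of these genes were of ordinary width, with a median of 156 bases and a range of 100 to 331.

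Other genes of the same structures were taken from 2 lists of 22 thin filament and 35 Z-disc symbols. Of the thin filament symbols 11 were called in any animal, and 10 of these in all 4. Not called were TPM3, TNNT3, TNNI2, TNNI3, TNNC1, TNNC2, NEBL, LMOD1, KLHL41, KBTBD13 and CFL2, so the fast troponin subunits and troponin C had no listed peak under these symbols. Of the Z-disc symbols 30 were called, 24 of them in all 4 animals. Together 34 of 41 called genes (82.9%) were called in all 4, against 43.8% of all called genes, and their median of the mean peak number was 2, against 1. Most peaks were found in TTN, the molecular spring titin, with a mean of 7.5, the actin cross-linker FLNC with 6, the actin-binding XIRP1 with 5.75, the alpha-actinin ACTN2 with 4.25 and the nebulin-related anchoring gene NRAP with 4.

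A call parted the breeds in 2 of these 41 genes, 1 in each direction (2.44% each), against 5.15% Jinhua-only and 2.42% Landrace-only over all called genes. TNNT2, the cardiac troponin T, had 1 coding peak in each Landrace animal and none in the Jinhua animals, the reverse of TNNT1. It lay at bases 366 to 529 of ENSSSCT00000026600 in Landrace 1 and 372 to 529 in Landrace 2. CAPZA2, a subunit of the actin capping protein of the Z-disc, was called in the Jinhua animals alone, at bases 1 to 142 of ENSSSCT00000018107 in Jinhua 1 and 1 to 145 in Jinhua 2. Peak numbers were higher in each Jinhua than in each Landrace animal for CAPZA2, TTN and XIRP2. They were higher in each Landrace than in each Jinhua animal for TNNT2, TPM2 and the obscurin-like OBSL1. Each order thus held for 7.32% of the 41 genes, near the 9.36% and 4.85% of all called genes, and in the other 35 genes the numbers overlapped between the breeds. TPM2, the beta-tropomyosin gene, is named here after its values were seen. Its 2 peaks adjoined in both Landrace animals, at bases 47 to 186 and 187 to 347 of ENSSSCT00000005854 in Landrace 1 and 70 to 186 and 187 to 347 in Landrace 2. Jinhua 1 had 1 peak at 123 to 353 and Jinhua 2 at 187 to 353, so its higher number in Landrace came with peaks that began nearer the transcript start. Adjoining peaks count as 1 where peaks are merged into regions, so a count of merged regions would not part the breeds for TPM2.

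**Figure D5:**
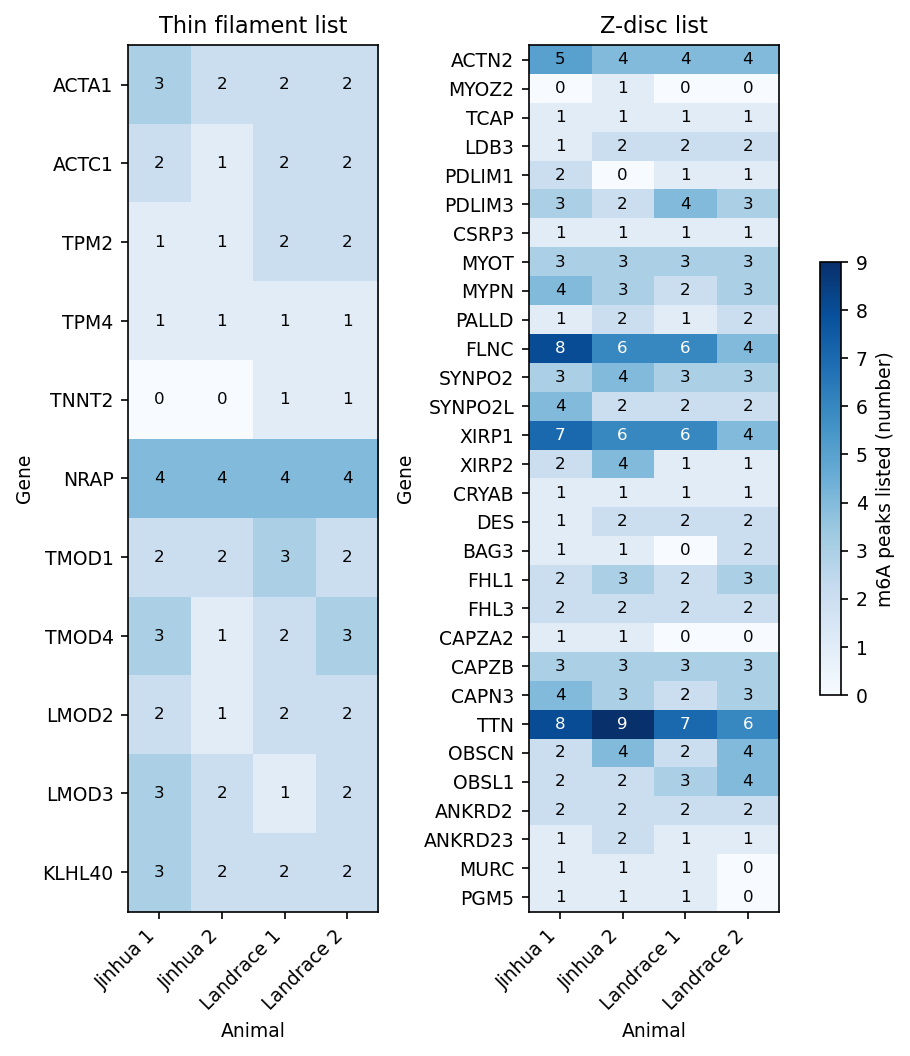
The number of listed peaks is written and shaded for each gene (rows) and animal (columns) of the thin filament and Z-disc lists, members and uncalled genes left out. TNNT2 has 1 peak in each Landrace animal and 0 in the Jinhua animals, and CAPZA2 has the opposite pattern.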

How the data were processed

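RNA of muscle from 2 Jinhua and 2 Landrace males gave 8 libraries, an immunoprecipitated and an input library per animal. The submitters' processing notes name TopHat2, version 2.0.14, and list Sscrofa10.2 and susScr3 as builds. Which program called the peaks, at what threshold and on which annotation is not given in the sources used here. Each animal has its own list, deposited by the authors with peak numbers and 1-based transcript positions. Depth is unknown.

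Members and gene lists were chosen with earlier results of these data known. Symbols came from the lists, and the gene name table named 520 of 1180 identifiers without one. Jinhua 2 and Landrace 1 give at most 4 positions and 3 annotated parts per gene, so regions were formed in the 5422 genes with complete positions, by merging peaks that overlapped by 1 base or adjoined. Exact permutation tests (scipy 1.17.1, Python 3.11.15) compared breeds. The labels describe separate animals. The merging of peaks and the sorting of regions by breed were tested on simulated lists, and the other steps were not. Named were the members, breed-parted genes of the wider lists, their 5 genes with most peaks, and up to 3 genes most like each NEB identifier. Transcript sequences were not used here.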

Additional observations from a re-analysis of the deposited data

How the results depend on the processing

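Of the differences in peak number between the breeds that were not 0, none reversed under the alternatives tried. Those of 0, for NEB ENSSSCG00000016398, TNNI1 and TPM1, have no direction to reverse. The numbers of NEB ENSSSCG00000016397, TNNT1 and PDLIM5 did not overlap between the breeds, so leaving out 1 animal could not reverse their differences. Leaving out each animal in turn left 6 identifiers called in every remaining animal, 2 in Jinhua alone and 0 in Landrace alone. These counts were fixed by construction, since each of the 8 was called in all 4 animals or in both Jinhua animals alone. The same step gave 5 to 6 regions shared by all remaining animals, 2 to 3 in Jinhua alone, 0 to 1 in Landrace alone (the second MYOZ1 peak, without Jinhua 2) and 90.7% to 96.0% of peaks in coding sequence. The differences in peak number ranged from 1.5 to 3.5 for NEB ENSSSCG00000016397, -0.5 to 0.5 for ENSSSCG00000016398, -1 to 0 for MYOZ1 and 0 to 1 for ANKRD1, and stayed at 1 for TNNT1 and PDLIM5 and at 0 for TNNI1 and TPM1. The differences in peak edges (Jinhua minus Landrace), an alternative added after seeing the data, ranged from 29.5 to 34.5 bases for the TPM1 start, stayed at 105 for its end, and ranged from 11 to 14 and 21.5 to 24.5 for the MYOZ1 start and end. Where the breeds overlapped, the end differences of 1 base in TNNI1 and 5 in ANKRD1 reversed, with ranges of -14 to 16 (-5 without Jinhua 1 and -14 without Landrace 1) and -5 to 15 (-5 without Landrace 1). Asking for 2 peaks per call left 3 identifiers in all 4 animals and 0 in Jinhua alone, since 4 of the 8 never have more than 1 and MYOZ1 has 1 in Jinhua 1. No listed peak was under 100 bases, so that minimum removed none. With a minimum of 150 bases, chosen after seeing the data, 3 identifiers were called in all 4 animals and 2 in Jinhua alone. The 2 were TNNT1 and TPM1 in place of PDLIM5. Of the regions 1 was shared by all 4, 4 were in Jinhua alone and 1 in Landrace alone. Shares over all genes and regions at this minimum were not computed. Without ANKRD1 1 Jinhua-only region was left. The coding share fell to 83.3% with genes whose every peak had an annotated part, which are those other than NEB. Per 1000 peaks of each list, the difference became -0.139 for NEB ENSSSCG00000016398 and -0.0158 for TNNI1 and TPM1. Asking for an overlap of 0.5 of the shorter peak, or joining peaks up to 50 bases apart, changed none of the 3 region counts.

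Animals with the same number in the 2 breeds share only that number. With the replicate block the differences in peak number were unchanged by construction, 2.5 for NEB ENSSSCG00000016397 and 1 for TNNT1 and PDLIM5, and with 2 pairs the exact p cannot go below 0.5. Unknown depth limits every absent call.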
